A study of Mus musculus with 10 samples.

Results

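The 10 genes described here encode the parts of the desmosome: desmoplakin (Dsp), plakoglobin (Jup), the plakophilins Pkp1, Pkp2 and Pkp3, the desmogleins Dsg2 and Dsg3, the desmocollins Dsc2 and Dsc3, and the desmosome-associated membrane protein Perp. They were found by gene symbol, and all 10 had a row in both RNA-seq tables, among 17658 genes listed in the SB431542 table and 16719 in the T-5224 table. Desmosomes join neighbouring epithelial cells and tie the junction to the keratin filaments of each cell. Desmogleins and desmocollins are cadherins that meet between the cells in the presence of calcium. Their tails bind plakoglobin and the plakophilins, and desmoplakin links this plaque to the keratins.

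The RNA came from ASZ001, a mouse basal cell carcinoma line that resists inhibitors of Smoothened. All libraries were from this single line, held for 24 h in low serum medium (0.2% chelated FBS) at a calcium chloride level of 0.05 mM, the low level at which these cells are also grown. In the first experiment, 3 libraries were from cells given 10 µM SB431542, an inhibitor of the TGFß receptor ALK5, and 3 from cells given DMSO. In the second, 2 libraries were from cells given 20 µM T-5224, an AP-1 inhibitor, and 2 from cells given DMSO. The comparisons ask which desmosome genes change in RNA level with each inhibitor. Expression is given in RPKM, reads scaled for the length of the gene and the depth of the library, so that levels can be compared between genes. Each inhibitor was set against the DMSO libraries of its own table only, because each experiment had its own DMSO libraries.

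The read totals by which the libraries were scaled, worked out from the RPKM values, were between 31.8 and 51.3 M. One library, DMSO replicate 1 of the SB431542 experiment, stood apart from its group, with an SD over genes of 0.272 on the log2 scale from the mean of the other DMSO libraries, against 0.161 and 0.190 for the other two and 0.123 to 0.126 for the SB431542 libraries. The basal keratinocyte markers Krt5 and Krt14 were at 4889 ± 104 and 4076 ± 187 RPKM (SD, n = 3) with DMSO in that experiment. Of the suprabasal markers, Sbsn was at 68.1 ± 9.60 RPKM (SD, n = 3) with DMSO there and Krt10 at 1.45 ± 0.135 RPKM, and Krt1 was at most at 0.098 RPKM. Over both experiments, immune markers summed to at most 0.125 RPKM in a library and melanocyte markers to at most 0.426 RPKM. Fibroblast, cardiac muscle and endothelial markers summed to at most 4.14, 6.81 and 11.97 RPKM, nearly all from Dcn, Tnnt2 and Pecam1.

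The desmosome genes of untreated ASZ001 cells spanned a wide range of levels. Perp was the highest in both sets of DMSO libraries, at 403 ± 19.8 RPKM (SD, n = 3) in the SB431542 experiment, where 1.17% of the genes tested were higher, and at 667 ± 26.4 RPKM (SD, n = 2) in the T-5224 experiment, where 0.324% were higher. In the first set it was followed by Dsp, Jup, Pkp1, Dsg3, Dsc3, Pkp3, Dsg2 and Pkp2. No neighbours in this order overlapped over the DMSO libraries, from Dsp, whose lowest library was at 225 RPKM, to Pkp2, whose highest was at 4.63 RPKM. In the second set Jup and Pkp1 stood above Dsp, and the order was otherwise the same. Dsc2 was the exception at the bottom, listed at 0 in 2 of the 3 DMSO libraries of the SB431542 experiment and at 0.04 RPKM in the other. The form of each family that is typical of stratified epithelium was the higher one for desmogleins and desmocollins, with Dsg3 at 5.28 ± 0.405 times Dsg2, and Dsc2 at no more than 0.0465% of the sum of Dsc2 and Dsc3 in any library of that experiment.

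**Figure D1:**
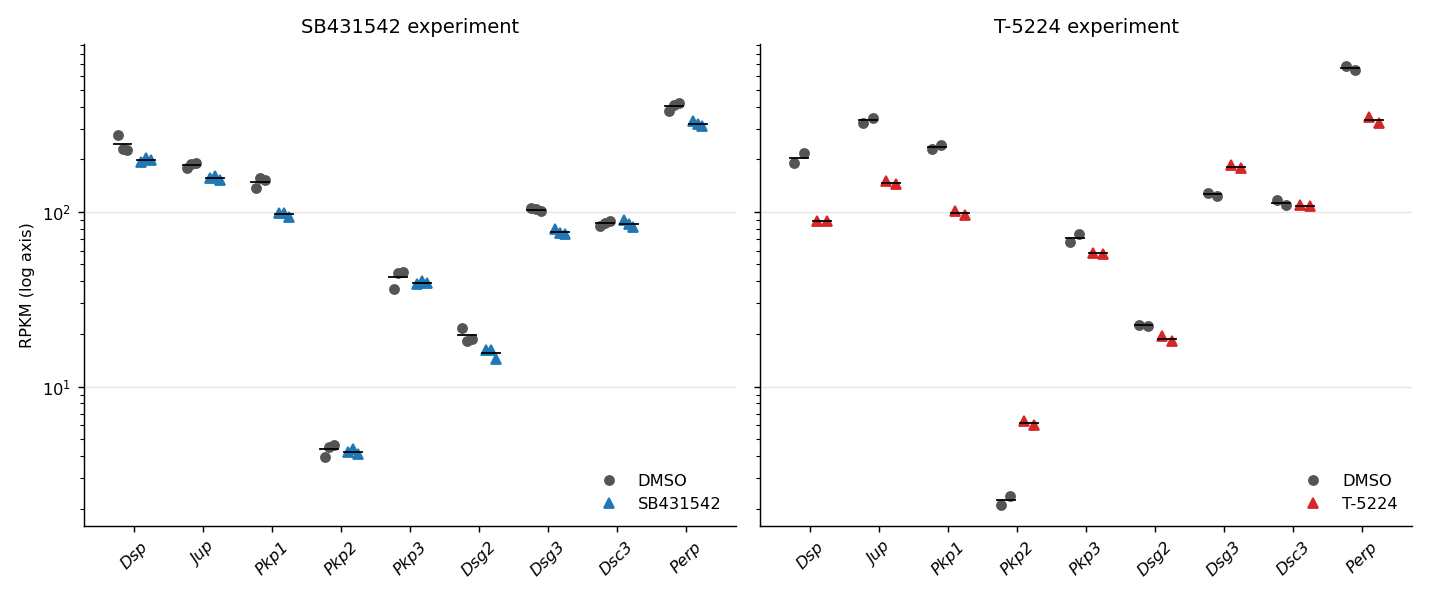
RPKM on a log axis of 9 desmosome genes in every library, with the SB431542 experiment on the left and the T-5224 experiment on the right; circles are DMSO libraries, triangles inhibitor libraries and bars group means. Dsc2, at 0.04 RPKM or less in every library, is not drawn. Pkp2 is the lowest gene drawn in both panels and the one with the largest rise, 2.77-fold with T-5224.

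With SB431542, 6 of the 9 desmosome genes tested were lower and none was higher. Pkp1, Dsg3, Perp, Dsg2, Dsp and Jup fell by between 15.8% and 34.8% of their DMSO means. Dsc3, Pkp2 and Pkp3 did not pass the test. Dsc2 was under the filter of a mean of 1 RPKM and was not tested. At the same threshold, an adjusted p under 0.05 (limma, two-sided), the share of all 10842 genes tested that fell was 10.0% and the share that rose was 10.2%. A fall of more than 2-fold was met by 0.581% of all genes and a rise of more than 2-fold by 0.231%, and by 0 desmosome genes in either direction. The middle value of the 9 log2 fold changes was -0.29, against 0.01 over all genes tested. The summed level of the 10 genes was 1222 to 1244 RPKM in the DMSO libraries and 968 to 1011 RPKM in the SB431542 libraries. In RNA from whole cultures, fewer cells with a transcript and less of it per cell cannot be told apart. The p-values measure only spread between these libraries, with the spread of each gene drawn by limma towards that of genes at similar levels.

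With T-5224, the same number of genes, 6 of 9, were lower, and 2 were higher. Pkp1, Dsp and Jup fell past 2-fold, Perp fell by 49.8%, Pkp3 fell by 18.5%, Dsg2 fell by 16.1%, Dsg3 rose 1.44-fold and Pkp2 rose 2.77-fold. Dsc3 did not pass the test. Most genes of the table passed the test with T-5224, 39.4% of the 10809 tested as lower and 40.3% as higher (limma, two-sided), so a call in either direction was the common outcome. At the limit of 2-fold, 10.6% of all genes were down and 10.4% were up. Of the desmosome genes, 3 were down at this limit and 1 was up. The middle value of the 9 log2 fold changes was -0.29, against 0.00 over all genes tested. The sum of the 10 genes was 1768 to 1783 RPKM in the DMSO libraries and 1018 to 1068 RPKM in the T-5224 libraries.

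**Figure D2:**
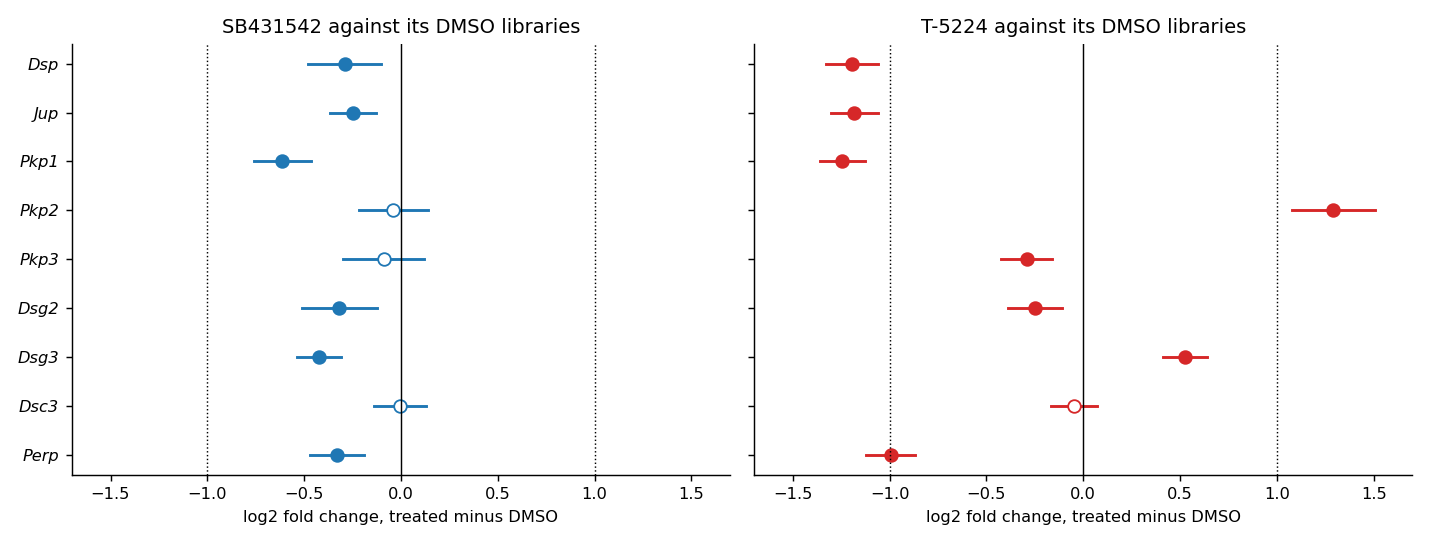
Log2 fold change of each tested desmosome gene against the DMSO libraries of the same table, with its 95% confidence interval from limma; filled points had an adjusted p under 0.05 and dotted lines mark a 2-fold change. With SB431542 all points lie between -0.61 and -0.01, and with T-5224 they run from -1.24 for Pkp1 to 1.29 for Pkp2.

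Desmoplakin, the plakin that ties the plaque to keratin, is encoded on mm9 chromosome 13 (38243197 to 38290446, plus strand). In the SB431542 experiment Dsp was at 275, 231 and 225 RPKM with DMSO and at 193, 202 and 199 RPKM with SB431542. The highest value came from the DMSO library that stood apart, and the lowest DMSO library was still above every treated one. Its log2 fold change was -0.29 ± 0.081 (SE; adjusted p = 0.0434, limma), the weakest of the 6 calls, and -0.20 without that library (adjusted p = 0.00195). The call was lost in 8 of 14 alternatives, among them leaving out DMSO replicate 2 or any 1 SB431542 library, with an adjusted p of up to 0.145. With T-5224, Dsp went from 192 and 216 RPKM to 88.8 and 88.3 RPKM. Both treated libraries were more than 2-fold under either DMSO library, a log2 fold change of -1.20 ± 0.061 (adjusted p = 8.51e-09, limma). At the same fold change, the adjusted p was 1.25e-05 without a trend of variance on mean level. It was 2.11e-04 without a filter on low values (limma), so the size of this p-value depended on the fit. The annotation places another gene, Gm10129, on the opposite strand across 360 exonic bases of Dsp, and whether the counting used strand is not given in the sources used here.

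Plakoglobin, the armadillo protein that binds cadherin tails in desmosomes and also in adherens junctions, is encoded on chromosome 11 (100230272 to 100259077, minus strand). Jup was at 178, 189 and 189.6 RPKM with DMSO and at 157, 159.9 and 152 RPKM with SB431542. The fall was of 15.8%, the smallest of the 6, with a log2 fold change of -0.25 ± 0.051 (adjusted p = 0.0167, limma). The call was lost in 5 of 14 alternatives, the replicate block and the fits without DMSO replicate 2 or any 1 SB431542 library, with an adjusted p of up to 0.0848. With T-5224 the change was larger, from 324 and 346 RPKM to 151 and 144 RPKM. This was a log2 fold change of -1.18 ± 0.054 (adjusted p = 3.50e-09, limma), close to that of Dsp.

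Dsp and Jup fell in both experiments, and they are the 2 of the 10 genes with an entry in the promoter table used here, so the sequences just upstream of their starts are shown. Each is the 250 bases before the RefSeq start of the gene in GRCm38.p6, a different build from mm9, written 5′ to 3′ on the strand of the gene. Capitals mark the GC box GGGCGG, a site bound by Sp1-type factors, on either strand. The Dsp stretch is chr13:38151044-38151293 on the plus strand and the Jup stretch is chr11:100397791-100398040 on the minus strand.
Dsp: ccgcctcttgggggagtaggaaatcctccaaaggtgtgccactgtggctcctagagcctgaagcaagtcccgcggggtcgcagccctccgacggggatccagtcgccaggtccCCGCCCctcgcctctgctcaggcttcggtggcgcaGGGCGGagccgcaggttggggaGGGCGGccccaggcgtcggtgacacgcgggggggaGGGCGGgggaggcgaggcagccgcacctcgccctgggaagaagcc
Jup: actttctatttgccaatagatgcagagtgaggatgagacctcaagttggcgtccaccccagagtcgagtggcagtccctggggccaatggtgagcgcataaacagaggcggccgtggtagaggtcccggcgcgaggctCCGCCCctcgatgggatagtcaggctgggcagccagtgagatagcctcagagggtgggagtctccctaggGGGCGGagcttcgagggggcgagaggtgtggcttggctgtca
The Dsp stretch held 4 GC boxes, starting 137, 102, 80 and 45 bases before the start, and the Jup stretch held 2, at 112 and 42 bases. Of all 32851 promoter stretches of this length in the table, 32.7% held at least 1. Their GC content was 72.4% for Dsp and 62.0% for Jup, against a median of 52.4% over the table. The AP-1 element TGANTCA, with N for any base, was in neither stretch and in 6.75% of all stretches. The other motifs searched on both strands were the cAMP response element TGACGTCA, the palindromic Smad box GTCTAGAC, the Snail-type E-box CAGGTG and the TATA box TATAAA. These had no match in either stretch and were in 1.55%, 0.167%, 17.2% and 12.4% of all stretches. A missing match says only that these letters are not in these 250 bases, and no motif overlapped another in the Dsp and Jup stretches.

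The plakophilins are armadillo proteins that cluster cadherins and desmoplakin at the sides of the plaque, and the 3 genes gave 3 different patterns. Pkp1, the form linked to stratified epidermis (chromosome 1, 137767972 to 137815784, minus strand), was at 138, 156 and 152 RPKM with DMSO and at 98.7, 98.9 and 93.4 RPKM with SB431542. It had the largest change of the 9 genes tested with this inhibitor, a fall of 34.8% and a log2 fold change of -0.61 ± 0.063 (adjusted p = 0.00123, limma), and 2.28% of all genes tested had a lower log2 fold change. With T-5224, Pkp1 went from 229.6 and 241 RPKM to 102 and 96.5 RPKM. Its log2 fold change of -1.24 ± 0.053 (adjusted p = 2.01e-09, limma) was the lowest of the desmosome genes, and 7.25% of all genes had a lower one. It was close to that of Dsp, with overlapping intervals, and without DMSO replicate 1 the fall of Dsp was the larger (-1.282 against -1.280). At the same fold change, the adjusted p of Pkp1 was 5.98e-06 without a trend of variance on mean level (limma). Without a filter on low values it was 9.99e-05, and that of Jup was 1.35e-04 and that of Pkp2 4.33e-04 (limma). The sizes of these p-values with T-5224 thus depended on the fit, like that of Dsp.

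Pkp2, the form known from simple epithelia and heart (chromosome 16, 16213411 to 16272805, plus strand), was by contrast the lowest plakophilin. It was at 3.97, 4.52 and 4.63 RPKM with DMSO and at 4.23, 4.37 and 4.11 RPKM with SB431542. The groups overlapped, and the 95% confidence interval of the log2 fold change was -0.22 to 0.14. With T-5224 it rose from 2.11 and 2.35 RPKM to 6.36 and 6.004 RPKM, so that the lower treated library was above the higher DMSO library more than 2-fold. The log2 fold change was 1.29 ± 0.097 (adjusted p = 2.12e-07, limma), and Pkp2 was the only member of the 9 tested to rise past 2-fold. Its level after T-5224 was still small beside the other plakophilins.

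Pkp3, found in most epithelia (chromosome 7, 148264117 to 148276409, plus strand), was at 36.2, 44.9 and 45.3 RPKM with DMSO and at 38.6, 40.5 and 39.2 RPKM with SB431542. The low DMSO value was again that of the library that stood apart, and the groups overlapped only through it. Its log2 fold change was -0.09 with a 95% confidence interval of -0.30 to 0.12 over all 6 libraries. Without that library it was -0.19 and passed the test (adjusted p = 0.00456, limma, where the alternatives gave adjusted p from 0.00456 to 0.827). More genes of the whole table passed in that fit, 1900 lower against 1085. With T-5224, Pkp3 went from 67.7 and 74.5 RPKM to 58.4 and 57.4 RPKM, a log2 fold change of -0.29 ± 0.059 (adjusted p = 7.75e-04, limma).

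The balance within the plakophilins was followed as ratios within each library, which do not depend on how a library was scaled. The ratio of Pkp1 to Pkp3 was 3.80, 3.48 and 3.36 in the DMSO libraries and 2.56, 2.44 and 2.39 in the SB431542 libraries. The groups did not overlap, and the log2 difference was -0.53 (exact permutation test, two-sided, p = 0.1, the smallest that 3 against 3 can give; 0.3 adjusted over the 3 ratios). It went from 3.39 and 3.24 with DMSO to 1.74 and 1.68 with T-5224, a log2 difference of -0.95 (exact permutation test, p = 0.3333, the smallest that 2 against 2 can give). Pkp1 thus lost ground to Pkp3 in each treated library. The ratio of Pkp2 to Pkp3 was 0.101 to 0.110 in the DMSO libraries and 0.105 to 0.109 in the SB431542 libraries, which overlapped (exact permutation test, two-sided, p = 0.4). It went from 0.0312 and 0.0316 with DMSO to 0.109 and 0.105 with T-5224, a 3.40-fold rise. These designs cannot reach an exact p under 0.05.

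**Figure D3:**
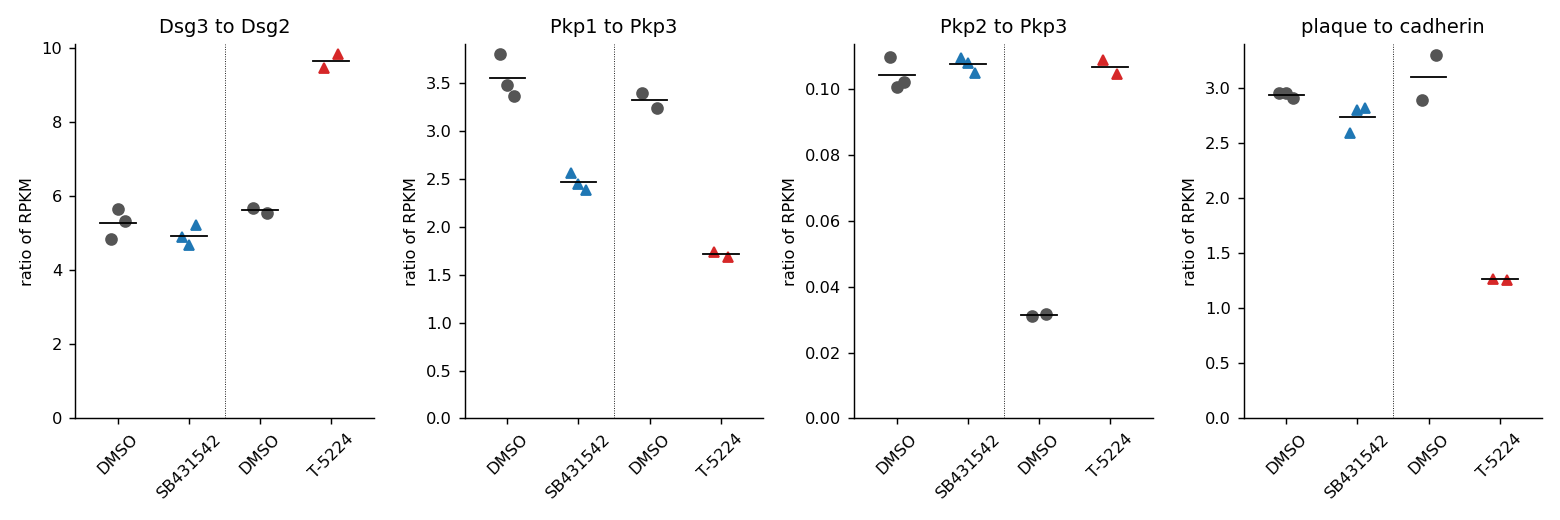
Ratios of RPKM within each library for Dsg3 to Dsg2, Pkp1 to Pkp3, Pkp2 to Pkp3, and summed plaque genes to summed desmosomal cadherins, with axes from 0; circles are DMSO libraries, triangles inhibitor libraries, bars group means, and the dotted line separates the experiments. The plaque to cadherin ratio falls from 2.90 and 3.30 to 1.26 in both T-5224 libraries.

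The desmosomal cadherin genes lie side by side on chromosome 18, a stretch of 644 kb in which 9 genes follow in the order Dsc3, Dsc2, Dsc1, Dsg1c, Dsg1a, Dsg1b, Dsg4, Dsg3 and Dsg2. The desmocollins are on the minus strand and the desmogleins on the plus strand. The genes at the ends were the most abundant in ASZ001 cells. Dsc3 at one end and Dsg3 and Dsg2 at the other averaged 86.2, 103 and 19.6 RPKM with DMSO in the SB431542 experiment, while each of the 6 genes between them was at most at 2.47 RPKM on average. In the T-5224 experiment Dsg1b, one of those between, averaged 10.4 RPKM with DMSO beside 22.4 RPKM for Dsg2.

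**Figure D4:**
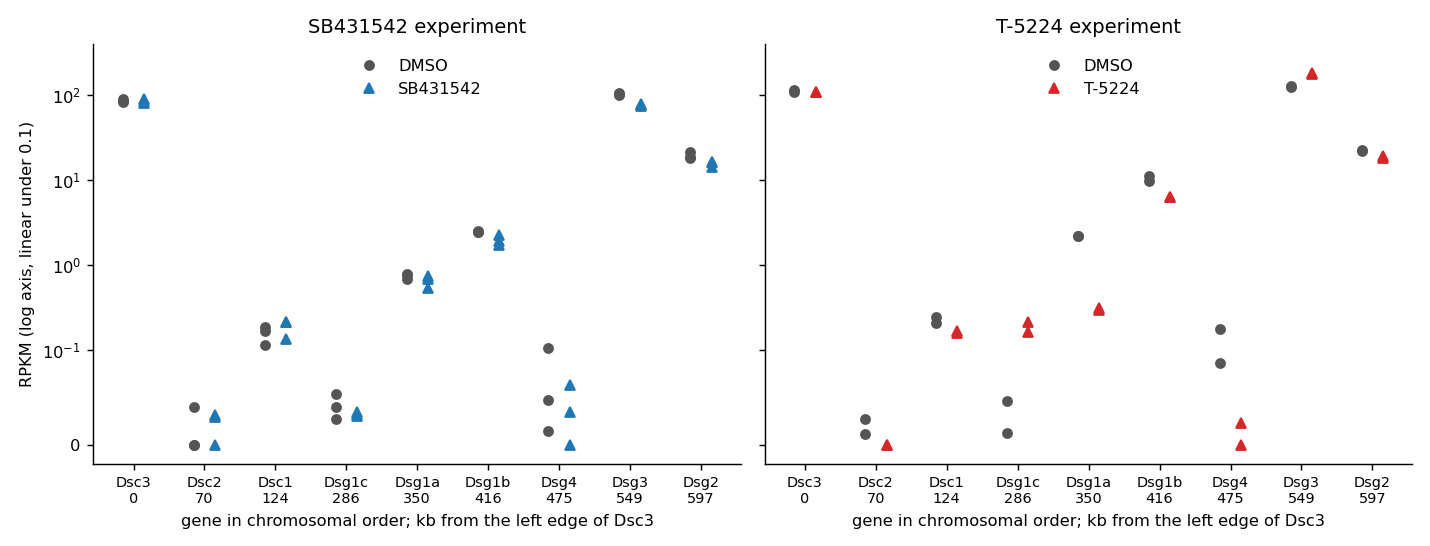
RPKM of the 9 desmosomal cadherin genes in each library, in their order along chromosome 18 with the distance in kb from the left edge of Dsc3 under each name; the axis is logarithmic and linear under 0.1. Dsc3, Dsg3 and Dsg2 at the ends of the cluster are above 14 RPKM in every library, and Dsg3 is the only one of these 3 whose T-5224 libraries lie above the DMSO libraries.

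Dsg3, the desmoglein of basal epidermis and the antigen of pemphigus vulgaris (20668805 to 20705360), was at 105, 104 and 101 RPKM with DMSO and at 79.5, 76.2 and 74.7 RPKM with SB431542. Every treated library was lower, with a log2 fold change of -0.42 ± 0.049 (adjusted p = 0.00200, limma). With T-5224 it went from 128 and 123 RPKM to 184 and 179 RPKM. Here the treated libraries were the higher ones, with a log2 fold change of 0.53 ± 0.051 (adjusted p = 1.97e-06, limma). Dsg3 was thus lower with one inhibitor and higher with the other, each against its own DMSO libraries, and the difference between the experiments was not tested.

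Dsg2, the desmoglein of simple epithelia (20716575 to 20763022), starts 11.2 kb from the end of Dsg3 and moved down with both inhibitors. It was at 21.7, 18.3 and 18.8 RPKM with DMSO and at 16.3, 16.2 and 14.3 RPKM with SB431542, a log2 fold change of -0.32 ± 0.083 (adjusted p = 0.0355, limma). This call was lost in 6 of 14 alternatives, without a filter on low values, without DMSO replicate 2 or 3 and without any 1 SB431542 library, with an adjusted p of up to 0.131. It went from 22.6 and 22.3 RPKM to 19.5 and 18.1 RPKM with T-5224, a log2 fold change of -0.25 ± 0.064 (adjusted p = 0.00384, limma). Without T-5224 replicate 2 the adjusted p was 0.0539. The annotation has a transcript on the opposite strand of Dsg2, Gm16090, across 3539 of its exonic bases, and this transcript was listed at no more than 0.237 RPKM. The ratio of Dsg3 to Dsg2 was 4.85, 5.65 and 5.34 with DMSO and 4.89, 4.69 and 5.21 with SB431542, and these overlapped (exact permutation test, two-sided, p = 0.3). It went from 5.68 and 5.55 with DMSO to 9.46 and 9.85 with T-5224, a 1.72-fold rise.

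Dsc3, the desmocollin of basal epidermis (20119431 to 20160598), was the one abundant member that did not pass the test in either experiment. It was at 83.3, 85.9 and 89.3 RPKM with DMSO and at 90.4, 85.4 and 81.7 RPKM with SB431542, and at 116 and 109 RPKM with DMSO and 110 and 108 RPKM with T-5224. The groups overlapped in both. The 95% confidence interval of its log2 fold change was -0.14 to 0.13 with SB431542 and -0.17 to 0.07 with T-5224 (adjusted p = 0.952 and 0.417, limma). With T-5224, Dsc3 made up 10.4% of the summed RPKM of the 10 genes against 6.34% with DMSO, and Dsg3 made up 17.4% against 7.10%. Dsc2, the desmocollin with the widest distribution in other tissues (20189134 to 20218055), was at 0.04 RPKM or less in all 10 libraries and was listed at 0 in both T-5224 libraries, so no ratio of Dsc3 to Dsc2 was formed.

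Other desmosomal genes were added to the picture from a separate list of 7. Dsg1b, one of the mouse forms of the desmoglein of upper epidermis, was at 2.44, 2.55 and 2.44 RPKM with DMSO and at 2.26, 1.93 and 1.72 RPKM with SB431542, which did not pass the test (adjusted p = 0.0878, limma). With T-5224 it fell from 11.2 and 9.69 RPKM to 6.30 and 6.29 RPKM, a log2 fold change of -0.68 (adjusted p = 1.64e-05, limma). Dsg1a was at 2.21 and 2.20 RPKM with DMSO and at 0.311 and 0.300 RPKM with T-5224. Both are uncertain, since Dsg1a, Dsg1b and Dsg1c are close copies of each other and counting could split their reads. Dsg1c, Dsg4 and Dsc1 averaged at most 0.227 RPKM in any group. Pkp4, a plakophilin relative found at several junctions, did not pass the test in either experiment (log2 fold change 0.08 and -0.16, adjusted p = 0.492 and 0.0518, limma). Cdsn, which encodes corneodesmosin, the adhesive protein of the desmosomes of the cornified layer, averaged 0.904 and 0.957 RPKM with DMSO and SB431542, and 0.666 and 6.80 RPKM with DMSO and T-5224. Dsg1a and Cdsn passed the filter of 1 RPKM in the T-5224 experiment only through the group where they were high, so their values are given without a test.

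Perp, a tetraspan membrane protein known as a target of p53 and p63 and needed for desmosome assembly in skin, is encoded on chromosome 10 (18564877 to 18576879, plus strand). It was at 381, 411 and 418 RPKM with DMSO and at 333, 319 and 309 RPKM with SB431542. All treated libraries were lower, with a log2 fold change of -0.33 ± 0.059 (adjusted p = 0.0103, limma, which was 0.0581 without SB431542 replicate 2 and 0.0600 without replicate 3). With T-5224 it went from 686 and 648 RPKM to 348 and 321 RPKM. This log2 fold change of -0.99 ± 0.057 (adjusted p = 2.34e-08, limma) stopped just short of the 2-fold limit, which it passed with DMSO replicate 2 or T-5224 replicate 1 left out and after quantile normalization. Of its known regulators, Trp63, which encodes p63, averaged 81.4 and 86.6 RPKM with DMSO and SB431542 and did not pass the test (adjusted p = 0.533, limma). It fell from 74.9 to 49.5 RPKM on average with T-5224 (log2 fold change -0.59, adjusted p = 1.03e-06, limma). Trp53, which encodes p53, averaged 86.2 and 94.6 RPKM with DMSO and SB431542 (adjusted p = 0.0994, limma) and rose from 70.0 to 177 RPKM on average with T-5224 (log2 fold change 1.33, adjusted p = 1.01e-09, limma).

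The plaque genes and the cadherin genes were also summed. This split was chosen after the values were seen and is given without a test. The summed RPKM of Dsp, Jup and the 3 plakophilins was 815 and 880.4 with DMSO and 406 and 392 with T-5224. The summed RPKM of all desmogleins and desmocollins was 281 and 267 with DMSO and 321 and 311 with T-5224, so the cadherin sum was higher and the plaque sum lower in both treated libraries. The higher cadherin sum came from Dsg3, and without Dsg3 it was 153 and 143 with DMSO and 136 and 133 with T-5224. Among the plaque genes Pkp2 went against the lower sum. The plaque to cadherin ratio went from 2.90 and 3.30 to 1.26 and 1.26, and without Dsg3 from 5.33 and 6.14 to 2.97 and 2.96. With SB431542 both sums were lower, the plaque sum at 617 to 631 with DMSO against 488 to 506 and the cadherin sum at 211 to 214 against 173 to 189, and the ratio went from 2.91 to 2.96 in the DMSO libraries to 2.60 to 2.82 in the treated ones.

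The genes to which desmosomes connect were counted from lists of partners and of other junctions. Over all genes tested, 10.0% were lower and 10.2% higher with SB431542. With T-5224, 39.4% of all genes were lower, 40.3% were higher and 10.6% were down past 2-fold. Of 10 keratins and plakins linked to desmosomes, 4 were lower and 2 higher with SB431542, with a median log2 fold change of -0.22. Krt16 (log2 fold change -0.87, adjusted p = 0.00902) and Krt14 (-0.81, adjusted p = 4.02e-04) fell furthest, and Krt15 (0.49, adjusted p = 0.0291) and Evpl (0.35, adjusted p = 0.00614), which encodes envoplakin, rose most (limma). With T-5224 all 10 were lower and 9 were down past 2-fold, with a median of -2.19. There Krt15 fell from 53.0 to 1.42 RPKM on average and Krt5 from 6002 to 589 RPKM, and the smallest changes were those of Evpl (log2 fold change -1.41) and Plec (-0.85), the gene of plectin. Keratin genes are close relatives of each other, so reads could be shared between them.

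Adherens junction genes were lower in 4 and higher in 1 of 14 with SB431542, and lower in 13 and higher in 1 of 14 with T-5224. The shares lower and higher over all genes tested were 10.0% and 10.2% with SB431542, and 39.4% and 40.3% with T-5224. Cdh2, which encodes N-cadherin, and Lima1, an actin-binding protein, had the lowest log2 fold changes in both experiments, at -0.47 and -0.39 with SB431542 and at -2.73 and -1.59 with T-5224. The gene that rose was Nectin1 (0.21) with SB431542 and Nectin2 (0.67) with T-5224, 2 related adhesion molecules. Limd1 (0.24, adjusted p = 0.125, limma) did not pass with SB431542, and Afdn (-0.32), which encodes afadin, was the least lowered with T-5224.

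Tight junction genes were lower in 3 and higher in 1 of 14 with SB431542, and lower in 8 and higher in 6 of 15 with T-5224. Of all genes tested, 10.0% were lower and 10.2% higher with SB431542, and 39.4% and 40.3% with T-5224. Cldn4, a claudin, fell from 10.3 to 6.15 RPKM on average with SB431542 (log2 fold change -0.69, adjusted p = 0.00649, limma) and rose from 4.94 to 22.6 RPKM with T-5224 (2.08, adjusted p = 1.75e-09, limma). Like Dsg3, it was called in opposite directions with the inhibitors. Pard3 (-0.29) fell and Cldn1 (0.30) rose with SB431542, where Pard6b (0.19, adjusted p = 0.192, limma) did not pass. With T-5224, Cgn (-1.08) and Magi3 (-0.80) fell furthest. Cldn23, at 0.396 RPKM with DMSO and 2.95 RPKM with T-5224 on average, is 1 of the 6 counted as higher and passed the filter only through its treated group.

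A list of regulators of desmosomes holds transcription factors, kinases, sheddases and membrane-raft proteins. It had 1 lower and 2 higher of 19 with SB431542, beside 10.0% and 10.2% of all genes tested. With T-5224 it had 7 lower and 4 higher of 17, beside 39.4% and 40.3% of all genes tested. Prkca (-0.50), the gene of a protein kinase C form that acts on desmosomes, fell and Flot2 (0.54), which encodes flotillin-2, rose with SB431542. Grhl1 (-0.26, adjusted p = 0.0942, limma) and Grhl3 (0.47, adjusted p = 0.0517, limma) did not pass. With T-5224, Klf5 (-0.77) and Snai2 (-0.72) were the furthest down, and Trp53 rose. Grhl3, a factor of epidermal differentiation, was at 0.497 RPKM with DMSO and 4.66 RPKM with T-5224 on average. It is 1 of the 4 counted as higher and passed the filter only through its treated group.

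**Figure D5:**
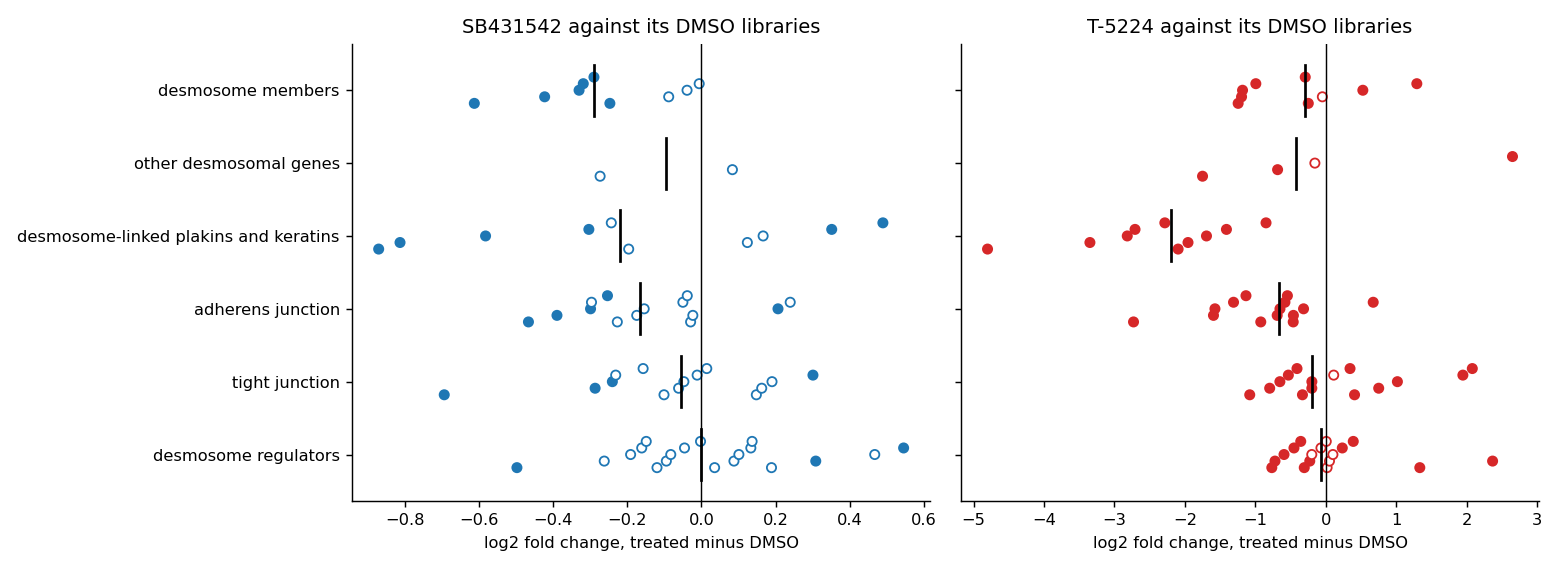
Log2 fold change against DMSO of every tested gene in 6 lists, one point per gene, with black bars for list medians; filled points had an adjusted p under 0.05 (limma), and the panels have different horizontal scales. With T-5224 the plakins and keratins have a median of -2.19 and the desmosome genes one of -0.29. In that panel Dsg1a, Cdsn, Cldn23 and Grhl3 are drawn filled and enter the medians of their lists. These genes passed the filter only through the group where they were high, so their fill is not read as a test.

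Markers of keratinocyte layers moved in the same libraries. Of the basal markers, Krt5, Krt14, Cdh1 and Trp63 are also counted in the lists above, so these counts are not separate. With T-5224, 6 of 7 basal markers were lower and 1 was higher, beside 39.4% and 40.3% of all genes tested. Their summed level was 12010 to 12662 RPKM in the DMSO libraries and 1813 to 1873 RPKM in the treated ones. Krt5 and Krt14 carried most of that sum, Cdh1 (log2 fold change -0.54) was the least lowered and Epcam (0.81) rose. The suprabasal markers Sbsn and Krt10 were lower. Calml3 averaged 3.30 RPKM with DMSO and 0.111 RPKM with T-5224. It passed the filter only through its DMSO group, so its values are given without a test. The 7 suprabasal markers with a row summed to 191 to 199 RPKM with DMSO and 33.7 to 35.4 RPKM with T-5224. With SB431542, 2 of 7 basal markers were lower and 1 higher, beside 10.0% and 10.2% of all genes tested. The basal sums were 9472 to 9653 RPKM with DMSO and 6725 to 7185 RPKM with SB431542, and 0 of 2 suprabasal markers passed the test. Krt5 and Krt14 carried most of the basal sums here too, averaging 4889 and 4076 RPKM with DMSO and 3964 and 2320 RPKM with SB431542. Trp63, Itgb4, Itga6 and Cdh1 did not pass the test and Epcam rose. The median log2 fold change of the basal markers was 0.04. The part of the layer markers in the changes of the desmosome genes was not tested.

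For SB431542, the number of lower members depended on which libraries were used. It was 3 of 9 without DMSO replicate 2 or SB431542 replicate 1, 2 of 9 without SB431542 replicate 2 or 3, and 7 of 9, the same 6 and Pkp3, without DMSO replicate 1. The number of all genes called lower moved from 1085 to 672, 532, 491, 433 and 1900 in the same fits. Pkp1 and Dsg3 passed the test in all 14 alternatives, with adjusted p of at most 0.0118 and 0.0198 (limma).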

How the data were processed

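The RNA-seq values of the ASZ001 line are those of 2 deposited tables, and all 10 columns of values were used, with 0 left out. The authors built stranded mRNA libraries, mapped reads to mm9 with TopHat and made the deposited RPKM values with HOMER, while their own comparisons used DESeq2. Counts were not analysed here, and replicates are biological ones by the study's methods. The read totals given were worked out from RPKM of short genes, where over 99% of the 110 to 165 values used per library lay within 0.05 of a whole read. Groups came from the sample labels. The T-5224 table numbers its DMSO columns differently from the labels, so these columns carry a group only.

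Rows named by a date, 22 and 23, were dropped. The test was limma 3.58.1 in R 4.3.3, applied to log2(RPKM + 0.5) of genes that averaged 1 RPKM or more. The prior variance followed a trend on the mean level, and p-values were adjusted by Benjamini-Hochberg over all those genes. Fold changes are on that scale, which understates those of low genes. Ratios within a library were compared by exact permutation (scipy 1.17.1), with adjustment over 3 ratios per experiment, since Dsc2 at 0 left the fourth without a value. The fit was tested on simulated data first. Gene positions are those of GENCODE for NCBIM37 (mm9), and promoter stretches from RefSeq for GRCm38.p6.

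The genes and lists were chosen with earlier results of these data known. Named are all 10 members, the other desmosomal genes, and in each further list the 2 lowest and 2 highest log2 fold changes among genes tested, apart from 1 list that is not reported here. In the SB431542 experiment, correlations of same-numbered deviations were -0.15, 0.15 and -0.09, and those of differently numbered ones ran from -0.17 to 0.20. So few values cannot decide whether replicate numbers pair the libraries. Other settings were a pseudocount of 0.1 or 1, all genes or those averaging 5 RPKM or more, median centring, quantile normalization, no trend, a replicate block, an unadjusted p, and each library left out in turn.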

Additional observations from a re-analysis of the deposited data

How the results depend on the processing

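The count of lower members with SB431542 ranged from 2 to 7 of 9 when a library was left out, against 6 with all libraries. With the replicate block it was 4, as Dsp (adjusted p = 0.0858, limma) and Jup (adjusted p = 0.0626) no longer passed. Whether replicate numbers pair these libraries could not be decided. Without a filter on low values it was also 4, as Dsp and Dsg2 (adjusted p = 0.0635) did not pass, and with median centring or without the mean-variance trend it was 5, where Dsp was lost each time. Leaving a library out also leaves fewer samples to the test. Dsc3 with SB431542 had log2 fold changes from -0.0442 to 0.0288 when a library was left out, turning positive without DMSO replicate 3 or SB431542 replicate 3. With SB431542 the counts of higher members and of members past 2-fold were 0 in each alternative (limma). With T-5224 and a mean RPKM of at least 5, the count of higher members was 1 and that past 2-fold was 0, since Pkp2 was not tested there. The other counts with T-5224 stayed within 1.5 times the values given, and every tested member other than Dsc3 with SB431542 kept its direction in both experiments under each alternative. The 3 ratios and the plaque to cadherin ratio kept their direction without each library. With Dsg3 left out of the cadherins, chosen after seeing the data, the log2 difference of the plaque to cadherin ratio was -0.27 with SB431542 and -0.95 with T-5224, against -0.10 and -1.29. Depth limits only Dsc2, whose level of 0.04 RPKM or less gives no basis for a comparison.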
